A study of Capra hircus with 198 samples.

Results

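Kidney medulla is the inner zone of the kidney, and 6 libraries of this goat tissue series, which covers 33 tissues of 6 goats with 1 library for each, carry it in their title. The libraries were taken by that title alone. Lactating goats 2, 3 and 6 gave 3 of them and dry goats 54, 64 and 73 the other 3. All 6 were adult females of the Murciano-Granadina dairy breed, and the same goats gave the other 32 tissues of the series. No treatment is given for either state, and age, days in milk, feeding and day of sampling are not given in the sources used here. The 2 states share no goat, so state cannot be told apart from any other difference between the 2 sets of goats, and p-values measure the spread between goats of a state. The comparison asks what differed in this tissue between lactation and the dry period, and how much cortex and medulla each library held.

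The nephron starts in the cortex, where podocytes filter the blood and the proximal tubule takes back most of the filtrate, its glucose, phosphate and amino acids, while also making glucose and creatine precursors. The loop of Henle then runs down into the medulla. Its thick ascending limb moves sodium chloride out of the urine without water, and the salt and urea that gather in the inner medulla let the collecting duct draw water back under vasopressin. Cells of the inner medulla hold organic osmolytes against the salt around them. Milk secretion adds a large demand for water, calcium and phosphate, which these segments handle.

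The libraries held 4.31, 4.88 and 4.76 M counts in lactation and 5.13, 5.33 and 5.60 M counts in the dry state. A floor of 3 counts stood between 0.535 and 0.696 CPM (counts scaled to the library total). Features annotated as long noncoding RNA (lncRNA) took 84.8% to 87.6% of the counts, so CPM values of other genes are low. CPM values below are relative to library totals, while fold changes (log2, lactation over dry) use TMM scaling, which sets the median feature near 0 (0.02). On library totals the median feature stood at 0.38, and each fold change is to be read relative to the TMM median.

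Markers of the nephron were checked first, in these libraries and in the other tissues. SLC12A1, the sodium-potassium-chloride cotransporter of the thick ascending limb, ran from 25.9 to 570 CPM in the 6 libraries, and its highest level in the libraries of the other 32 tissues was 14.8 CPM, in the neurohypophysis. UMOD, the uromodulin of the same segment, ran from 41.6 to 626 CPM against at most 4.64 CPM elsewhere. The channel subunit KCNJ16, the sodium pump regulator FXYD2 and the proton pump subunit ATP6V0A4 also lay above all other libraries in all 6. Of 101 genes in the nephron lists, 37 had kidney medulla as their highest tissue. The water channel AQP2 of the collecting duct had its highest mean in kidney medulla, at 21.1 CPM against 15.9 CPM in the ovary, but a single ovary library reached 38.9 CPM against at most 30.7 CPM here. The counting is not stated to use strand, so genes that overlap another gene or an antisense or intronic lncRNA, such as SLC5A3, ADCY6, PDE4D, ATP1B1, WNK1, HSPD1, SLC5A2, PTPRO, SLC8A1, PTGER3, PLA2R1, S100G, HPX, CDH20 and PRTG, may share reads with it.

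The segment content of the libraries differed by state. On library totals, the proximal tubule and thick ascending limb lists differed most among nephron segments. That order is for library totals only, and on TMM-scaled CPM the log2 ratio of the distal tubule list was -2.23. For the thin limb and principal cell lists the log2 ratio on TMM-scaled CPM was -0.0076 and 0.27. On library totals both sums lay higher in all lactating goats, at 1.28 and 1.55 times the dry mean. Without their highest members, AQP1 and FXYD2, the log2 ratios on library totals were 1.32 and 1.09. The proximal tubule list, of 22 genes in the table, summed to 183, 481 and 197 CPM in lactation and to 3622, 1868 and 2948 CPM in the dry state. The thick ascending limb list, of 17 genes, summed to 548, 1493 and 1119 CPM in lactation and to 279, 241 and 249 CPM in the dry state. Proximal tubule signal was thus 9.80 times as high in dry goats, and thick limb signal 4.11 times as high in lactating goats. The ratio of proximal tubule to thick limb was 0.334, 0.322 and 0.176 in lactation and 13.0, 7.75 and 11.9 in the dry state. No library of one state came near those of the other, while over all features tested 30.5% lay higher in all lactating goats without overlap and 10.1% in all dry goats. In bulk tissue, fewer cells of a type and less RNA per cell cannot be told apart. The title names medulla for all 6, while the proximal tubule is a tubule of the cortex and the outermost medulla. The dry libraries therefore go against that title in part, and lactation state cannot be told apart from the cortex content of the piece in any comparison below.

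**Figure D1:**
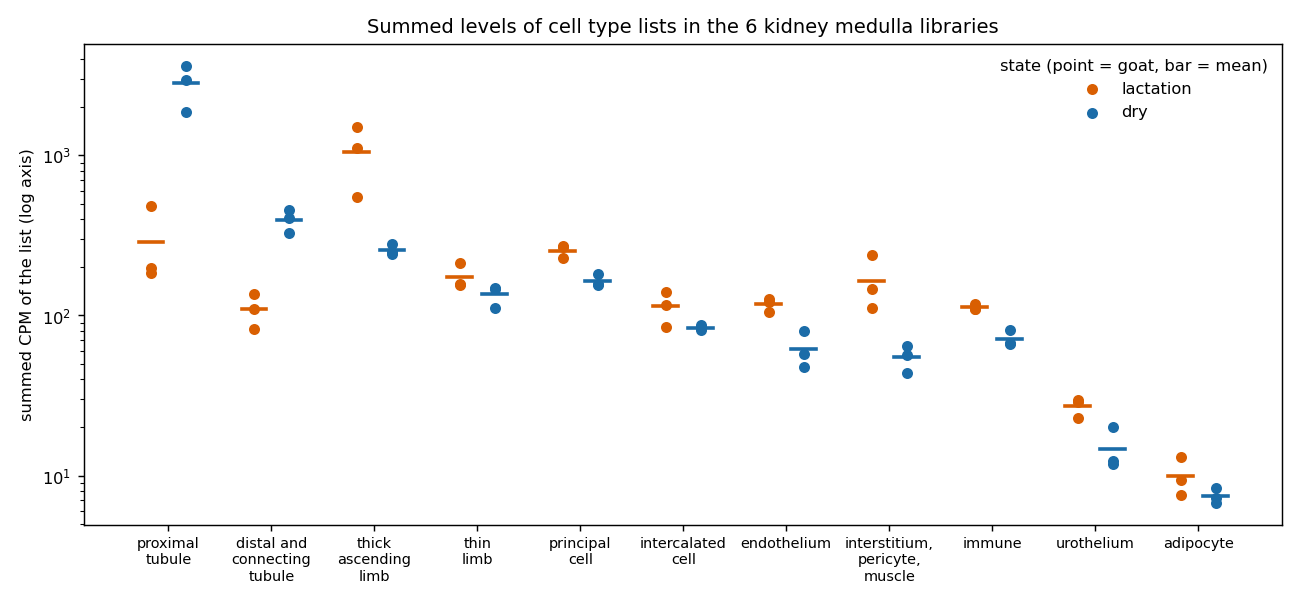
Summed CPM of 11 cell type lists (log axis) in the 6 kidney medulla libraries, with lactating goats left and dry goats right within each list, 1 point per goat and a bar at the mean. The proximal tubule and the distal tubule lists lie higher in all dry goats, and the thick ascending limb list lies higher in all lactating goats (548 to 1493 CPM against 241 to 279 CPM).

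Proximal tubule genes fell in lactation almost without exception. Of 21 members tested, 20 were lower and 0 higher, with a median log2 fold change of -3.91 against 0.02 for all 18413 features tested, of which 15.1% were called at all and 9.11% called lower (edgeR quasi-likelihood test, Benjamini-Hochberg adjusted p at most 0.05). LRP2, the megalin receptor that takes up filtered protein, stood at 44.5, 169 and 37.0 CPM in lactating goats and at 1394, 668 and 886 CPM in dry goats (log2 fold change -3.85, SE 0.55, edgeR adjusted p = 0.000537). Its partner cubilin, CUBN, stood at 2.78, 41.6 and 2.10 CPM in lactation and at 355, 188 and 262 CPM in the dry state. Both receptors were higher in goat 3 than in the other lactating goats, and the states did not overlap. PDZK1, a scaffold for brush border transporters, stood at 43.4, 70.2 and 45.4 CPM in lactation and at 282, 140 and 318 CPM in the dry state.

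Several proximal tubule genes were close to absent in lactation. SLC6A19, a neutral amino acid transporter of the brush border, had 0.23, 0.41 and 0 CPM in lactation and 31.0, 34.7 and 40.3 CPM in the dry state. MIOX, which starts the breakdown of inositol, had 0, 0.61 and 0 CPM in lactation and 36.3, 40.9 and 22.0 CPM in the dry state, which is 153 times as high (95% exact interval 51.9 to 742, counting error only). GATM, the first enzyme of creatine synthesis, and SLC22A8, an organic anion transporter, were at 0 in all 3 lactating goats, and so at least 150-fold and at least 98.5-fold lower than in dry goats, against a floor of 3 counts over the group. The list did not fall evenly. The glucose cotransporter SLC5A2 kept 8.82, 8.19 and 11.6 CPM in lactation against 30.4, 32.4 and 26.4 CPM in the dry state. SLC34A1, a phosphate cotransporter, was the tested member not called, with 0.46, 4.71 and 0.63 CPM in lactation and 4.49, 2.25 and 0.71 CPM in the dry state. SLC17A3 lost its call without dry goat 54 (adjusted p = 0.0570).

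Podocyte genes split. NPHS1, the nephrin of the filtration slit, had 0.23, 0.20 and 0 CPM in lactation and 2.93, 4.13 and 1.07 CPM in the dry state, and was too low for the test. PTPRO, a receptor phosphatase of podocytes, had 0, 0.20 and 0.21 CPM in lactation and 11.9, 16.1 and 13.7 CPM in the dry state. WT1, a transcription factor of podocytes, was at 0 in lactation and near 2 CPM in the dry state, at 2.15, 2.06 and 1.96 CPM, too low for the test. These 3 genes of the glomerulus, which lies in the cortex, were close to or below the detection limit in lactating goats. PLA2R1, a receptor known in humans from podocytes, went the other way, with 108, 33.2 and 63.1 CPM in lactation and 10.7, 15.9 and 12.8 CPM in the dry state (log2 fold change 1.97, SE 0.35, edgeR adjusted p = 0.00249). Of 5 podocyte genes tested, 1 was higher (6.02% of all features were) and 3 were lower (9.11% of all features were). The sum of the list overlapped between states, and without PLA2R1 its log2 ratio was -1.77.

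The distal convoluted and connecting tubule lie in the cortex. The sum of their list was 137, 82.7 and 110 CPM in lactation and 409, 327 and 457 CPM in the dry state. Of 11 tested, 0 were higher, 5 were lower and 6 were not called, with a median of -0.91. Over all features 6.02% were called higher and 9.11% lower. CALB1, the calbindin that carries calcium through these cells, had 24.6, 14.5 and 11.1 CPM in lactation and 239, 149 and 245 CPM in the dry state (log2 fold change -4.02, SE 0.30, edgeR adjusted p = 7.33e-06). SLC8A1, a sodium-calcium exchanger, had 8.35, 4.91 and 6.31 CPM in lactation and 63.0, 58.3 and 74.1 CPM in the dry state. SLC12A3, the thiazide-sensitive cotransporter that defines the segment, had 1.62, 0 and 0 CPM in lactation and 7.80, 33.4 and 14.3 CPM in the dry state. All 3 genes, which are called ones, separated the states without overlap. Of all features tested, 10.1% lay higher in all dry goats without overlap. TRPM6, a magnesium channel, fell with a log2 fold change of -2.30. KLHL3, an adaptor that limits the WNK kinases, fell by 1.87, but its adjusted p reached 0.142 when single goats were left out (lactating goats 3 and 6, dry goats 64 and 73).

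Of 15 thick ascending limb genes tested, 7 were higher in lactation, 2 were lower and 6 were not called, with a median of 1.18. Over all features 6.02% were called higher and 9.11% lower. Among the 7 were genes for salt uptake, calcium sensing and prostaglandin reception. SLC12A1 had 207, 570 and 564 CPM in lactation and 47.0, 25.9 and 46.2 CPM in the dry state (log2 fold change 3.17, SE 0.39, edgeR adjusted p = 0.000204). CASR, the calcium-sensing receptor, had 46.1, 52.4 and 74.0 CPM in lactation and 9.16, 12.9 and 10.9 CPM in the dry state (2.03, SE 0.27). PTGER3, a prostaglandin E2 receptor, had 68.9, 85.2 and 104 CPM in lactation and 23.6, 15.4 and 22.8 CPM in the dry state (1.72, SE 0.25). CLDN19, a claudin of the paracellular path for calcium and magnesium, had 9.74, 9.42 and 7.15 CPM in lactation and 0.20, 0.94 and 0.89 CPM in the dry state (3.28, SE 0.61). None of the 4, all picked from the called genes, overlapped between states. Of all features tested, 30.5% lay higher in all lactating goats without overlap.

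UMOD varied more among lactating goats, with 71.9, 626 and 224 CPM against 57.5, 41.6 and 48.5 CPM in dry goats (log2 fold change 2.35, SE 0.58, edgeR adjusted p = 0.0171). Goat 3 set most of that rise, and UMOD lost its call without it or without any 1 dry goat (highest adjusted p = 0.0748). KCNJ1, the potassium channel that recycles potassium for SLC12A1, rose by 1.18 on the log2 scale and lost its call without lactating goat 3 or 6 or dry goat 54 (highest adjusted p = 0.0987). RAP1GAP, a GTPase regulator, rose by 2.10 and lost its call without lactating goat 6 (adjusted p = 0.0515). The 2 members that fell were KCNJ16, at 18.8, 28.3 and 25.9 CPM in lactation and 69.1, 54.6 and 50.3 CPM in the dry state, and TMEM52B, at 2.11, 1.02 and 1.28 CPM in lactation and 16.4, 13.9 and 9.79 CPM in the dry state. KCNJ16 is also known from the basal membrane of proximal and distal tubules, whose list sums were lower in lactation, and their part in its fall was not tested. The rest, CLDN10, CLDN16, BSND, EGF, KCNJ10 and NOS1, did not pass the test. CLDN10, a claudin of the sodium path, had 10.4, 18.2 and 12.6 CPM in lactation and 14.6, 10.1 and 17.3 CPM in the dry state.

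Collecting duct genes differed less. The principal cell list summed to 270, 227 and 266 CPM in lactation and to 181, 155 and 158 CPM in the dry state. Of 15 tested, 3 were higher and 1 was lower, with a median of 0.14, beside 15.1% called over all features. AQP2 itself had 30.7, 18.6 and 24.1 CPM in lactation and 14.3, 24.2 and 14.8 CPM in the dry state, which overlapped (log2 fold change 0.08, SE 0.29, edgeR adjusted p = 0.894). AQP4, the exit channel for water, also overlapped, with 20.6, 15.4 and 20.4 CPM in lactation and 19.7, 9.40 and 11.1 CPM in the dry state. The genes that rose are shared by many epithelia. EPCAM, an adhesion protein, had 55.9, 49.7 and 56.1 CPM in lactation and 9.95, 12.0 and 9.99 CPM in the dry state (1.98, SE 0.23, edgeR adjusted p = 0.00012). The keratin KRT8 had 35.7, 25.6 and 35.3 CPM in lactation and 7.61, 6.0 and 5.53 CPM in the dry state (1.97, SE 0.27). ELF3, an epithelial transcription factor, rose by 3.20 and lost its call without any of 4 goats (highest adjusted p = 0.159, for lactating goats 2 and 6 and dry goats 54 and 64). FXYD2 fell, with 26.9, 37.8 and 23.7 CPM in lactation and 59.7, 48.6 and 69.2 CPM in the dry state, and it too is known from several tubule segments.

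Of 11 intercalated cell genes tested, which serve acid and base transport, 1 was higher and 2 were lower, beside 15.1% called over all features. AQP6, a water and anion channel of these cells, had 9.28, 17.0 and 13.5 CPM in lactation and 0, 0.56 and 1.43 CPM in the dry state. RHCG, an ammonia channel, had 3.25, 2.25 and 1.47 CPM in lactation and 10.5, 13.1 and 14.5 CPM in the dry state. ATP6V0A4 fell by 1.43 on the log2 scale and lost its call without dry goat 73 (adjusted p = 0.0512). ATP6V1B1, the pump subunit with the highest level of the list, had 47.1, 60.6 and 85.6 CPM in lactation and 37.6, 29.3 and 31.6 CPM in the dry state and did not pass the test (0.63, SE 0.25, edgeR adjusted p = 0.122). In the thin limb list, AQP1, a water channel of the descending limb and also of the proximal tubule, overlapped, with 123, 108 and 78.8 CPM in lactation and 122, 84.2 and 116 CPM in the dry state. SLC14A2, a urea transporter, was the 1 of 5 thin limb genes called.

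**Figure D2:**
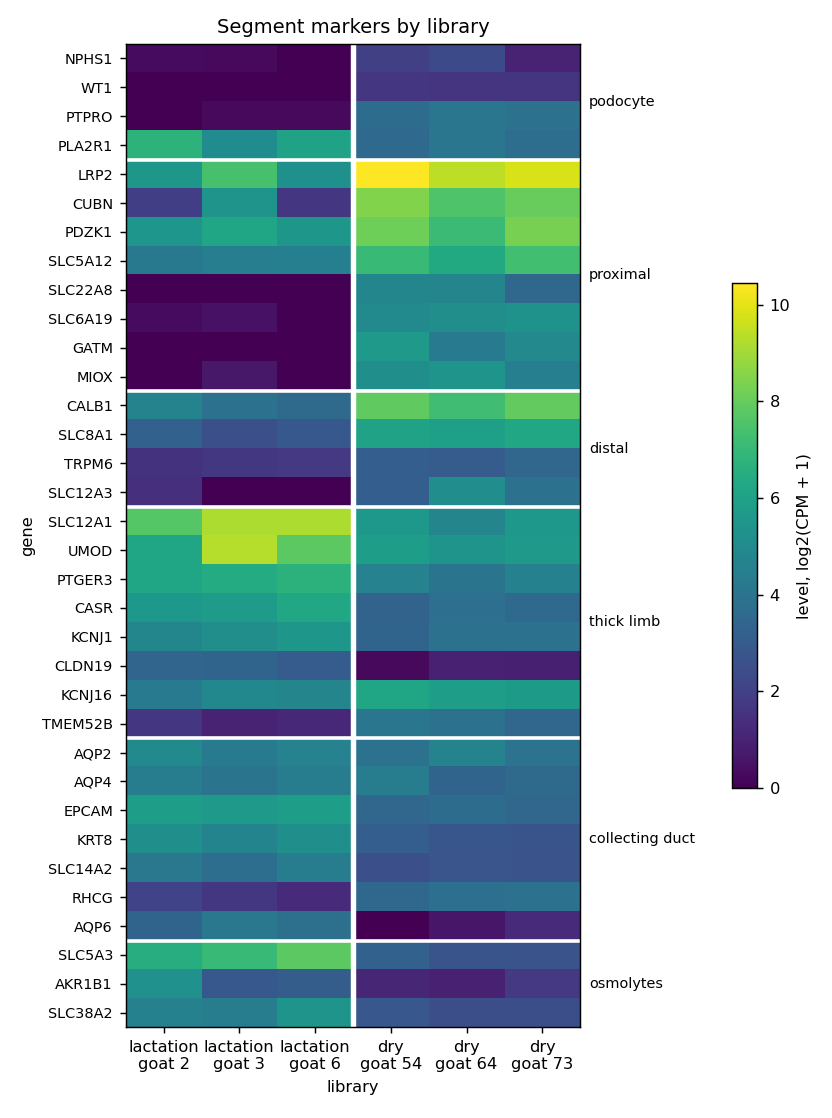
Level of 34 segment and osmolyte genes, as log2(CPM + 1), in each of the 6 libraries, with lactating goats in the left columns and dry goats in the right ones and the segment written at the right edge. The proximal and distal tubule genes shown are brighter in the dry goats, most thick limb genes shown and SLC5A3 are brighter in the lactating goats, and AQP2 is alike in both. The distal and thick limb genes shown were picked from those called. Of the genes tested in these lists, 6 of 11 distal and 6 of 15 thick limb genes were not called. Over all features 15.1% were called.

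Most genes tested of the cells between the tubules were not called, while over all features 15.1% were called and 6.02% called higher. The endothelial list summed to 106, 121 and 126 CPM in lactation and to 48.0, 80.3 and 57.5 CPM in the dry state, and 3 of 10 genes rose. These sums are on library totals, and on TMM-scaled CPM the log2 ratio of the endothelial sums was 0.56 and that of the immune sums 0.29. VWF, the von Willebrand factor of vessel walls, had 17.2, 19.4 and 32.6 CPM in lactation and 2.34, 3.0 and 2.32 CPM in the dry state (log2 fold change 2.81, SE 0.39, edgeR adjusted p = 0.000421). PECAM1, a general endothelial marker, had 19.3, 20.9 and 25.2 CPM in lactation and 12.9, 19.1 and 6.78 CPM in the dry state and was not called. EGFL7, an endothelial growth factor, rose by 1.88 but lost its call without lactating goat 2 or 3 or dry goat 73 (highest adjusted p = 0.110). The list of fibroblasts, pericytes and smooth muscle summed to 146, 112 and 237 CPM in lactation and to 43.9, 64.2 and 56.8 CPM in the dry state. Of its 10 genes tested, 2 rose. They were RGS5, a pericyte gene at 16.3, 25.9 and 58.0 CPM in lactation and 5.51, 3.27 and 6.62 CPM in the dry state, and PDGFRA, a fibroblast receptor at 13.0, 22.3 and 34.9 CPM in lactation and 3.12, 4.69 and 6.42 CPM in the dry state. PDGFRA lost its call without lactating goat 6 (adjusted p = 0.0601).

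Of 10 immune genes tested, 1 was higher and 1 lower, beside 15.1% called over all features. CD14, a receptor for bacterial lipopolysaccharide on myeloid cells, had 4.64, 2.25 and 4.84 CPM in lactation and 15.02, 24.2 and 9.28 CPM in the dry state. The T cell gene CD8A had 3.94, 2.66 and 3.57 CPM in lactation and 0.20, 0.38 and 0.54 CPM in the dry state, and lost its call without any 1 of the 6 goats (highest adjusted p = 0.12). Markers of neighbouring tissues varied by gene. AHSP, a haemoglobin chaperone of red cells, ran from 30.7 to 44.6 CPM in lactation and from 27.3 to 35.3 CPM in the dry state. STAR, a cholesterol carrier of the adrenal, ran from 5.53 to 13.04 CPM in lactation and from 5.85 to 7.69 CPM in the dry state. In the urothelium list, PSCA ran from 7.15 to 14.7 CPM in lactation and from 5.53 to 9.78 CPM in the dry state, and the uroplakin UPK1B from 6.76 to 10.1 CPM in lactation and from 2.86 to 4.88 CPM in the dry state. The uroplakins UPK2 and UPK3A and the keratin KRT5 of the urothelium, ADIPOQ and LEP of fat, the neutrophil gene S100A8, the red cell enzyme ALAS2 and the adrenal side-chain cleavage enzyme were at 0 in all 6 libraries. No gene of the urothelium, fat, adrenal or red cell lists was called (3, 2, 2 and 1 tested).

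Across all features, 2787 of 18413 tested were called, 1109 higher in lactation and 1678 lower. On library totals in place of TMM the split was 2572 higher and 1192 lower of 3764, so the balance of directions rests on the scaling. Without lactating goat 6 the higher calls numbered 721 and without dry goat 54 they numbered 682, with more lower than higher calls in both. Of the calls, 619 genes and 484 lncRNA features were higher, and 997 genes and 675 lncRNA features were lower. The same fit in each of the 33 tissues gave the highest count in kidney medulla, followed by the ovary with 2112 and the pineal gland with 1440. Spearman correlations of the libraries, across the features tested, were 0.889 to 0.896 among lactating goats and 0.874 to 0.888 among dry goats, and 0.710 to 0.790 between the states. With the log2 proximal tubule sum of each library as a covariate, 1 feature was called, and 4.94% of features had an unadjusted p of at most 0.05. That covariate had 91.1% of its variance between the states, so the fit cannot tell state and proximal tubule content apart.

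**Figure D3:**
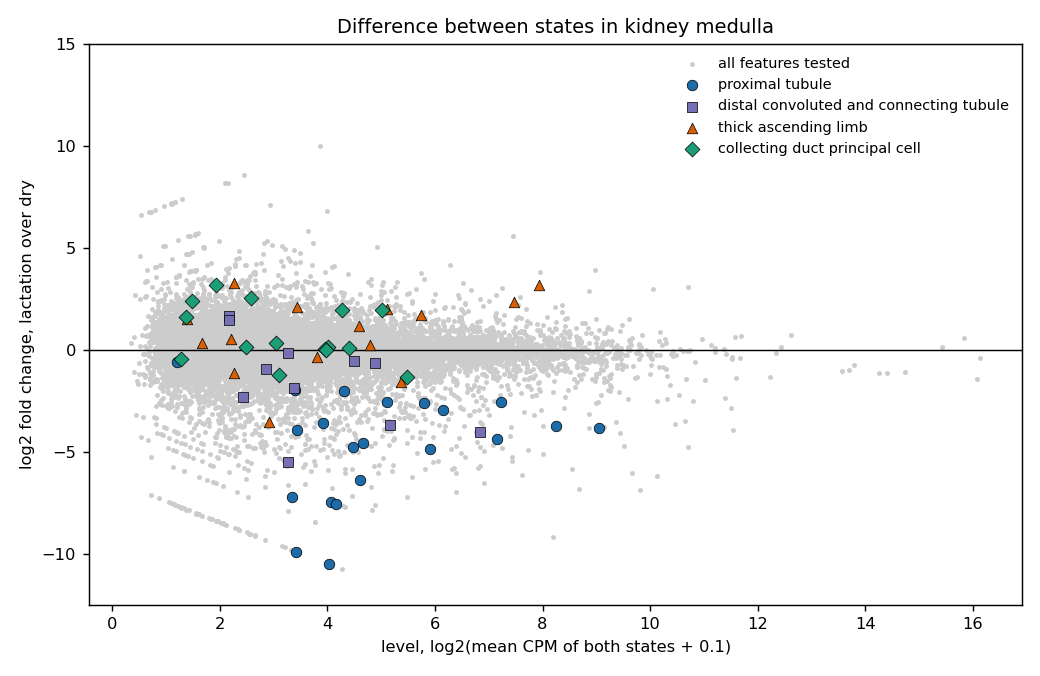
Log2 fold change of lactation over dry against level, log2(mean CPM of both states + 0.1), for the 18413 features tested, with members of 4 nephron lists marked. Proximal tubule members lie below 0 (median -3.91), and thick ascending limb members lie mostly above 0 (median 1.18).

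**Figure D4:**
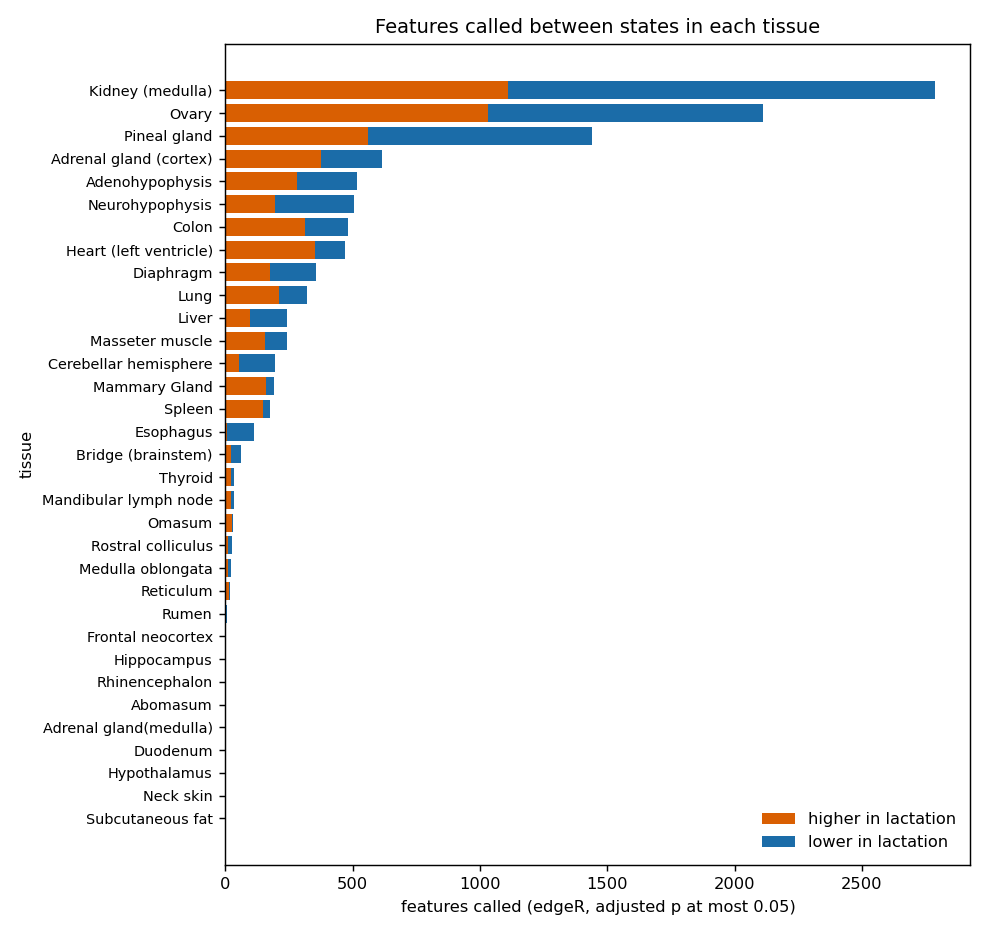
Number of features called between lactating and dry goats in each of the 33 tissues (edgeR, adjusted p at most 0.05), split by direction along each bar. Kidney medulla has the longest bar, with 2787 features.

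Of the genes with the 10 largest falls in lactation, 9 were at 0 in all lactating goats. Besides GATM and SLC22A8, these included BBOX1, the last enzyme of carnitine synthesis (0 in lactation and 11.5, 7.69 and 22.8 CPM in the dry state, at least 65.2-fold lower), NPL, which breaks down sialic acid (at least 45.9-fold), TTR, the thyroxine carrier transthyretin (at least 39.3-fold), the cadherin CDH20 (at least 36.6-fold), HPGD, which inactivates prostaglandins (at least 35.2-fold), and NOD2, a sensor of bacterial cell wall (at least 32.2-fold). ACSM2B, a medium-chain acyl-CoA ligase, had 1 count in lactation and was 377 times as high in dry goats (95% exact interval 67.3 to 14925). GATM and SLC22A8 are members of the proximal tubule list, which was 9.80 times as high in dry goats.

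The largest rises were in genes of low level. APCDD1, an inhibitor of Wnt signalling, had 20.2, 11.3 and 13.2 CPM in lactation and 0, 0.19 and 0 CPM in the dry state. PRTG, the cell surface protein protogenin, had 68.0, 10.6 and 15.8 CPM in lactation and 0, 0.56 and 0 CPM in the dry state, and goat 2 stood far above the others. The nuclear receptor ESRRB (at least 21.6-fold), the haem carrier HPX (at least 21.6-fold), the DNA helicase BLM (at least 19.8-fold), the vesicle linker MLPH (at least 16.5-fold), the sulfotransferase GAL3ST3 (at least 16.03-fold) and ACVRL1, a receptor of the TGF-beta family on endothelium (at least 14.5-fold), were at 0 in all dry goats. ACVRL1 lost its call without lactating goat 6 (adjusted p = 0.0524). The urea transporter SLC14A1, also among the 10 largest, is described with water handling.

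Among lncRNA features, LINC65013 had 1.39, 2.45 and 0 CPM in lactation and 567, 497 and 700 CPM in the dry state (log2 fold change -9.15, SE 0.54, edgeR adjusted p = 2.36e-06). Each dry goat lay far above every lactating goat. LINC20908 and LOC108633441-AS1 were at 0 in lactation, at least 102-fold and at least 57.6-fold lower. In the other direction, NANOS1-DT1, a divergent transcript, had 12.8, 25.0 and 49.4 CPM in lactation and 0 in the dry state, at least 156-fold higher. LOC108636775-AS1 (at least 46.7-fold) and TUSC3-IT3 (at least 17.4-fold) were also at 0 in all dry goats.

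The osmolyte genes that rose were those for inositol, sorbitol and amino acids. SLC5A3, the sodium-driven inositol importer and a target of the salt-responsive factor NFAT5, had 90.7, 131 and 223 CPM in lactation and 8.39, 5.63 and 5.35 CPM in the dry state (log2 fold change 4.18, SE 0.36, edgeR adjusted p = 1.8e-05). The lowest lactating goat lay far above the highest dry goat. AKR1B1, the aldose reductase that makes sorbitol, had 37.6, 6.35 and 7.36 CPM in lactation and 1.17, 0.94 and 2.32 CPM in the dry state, and lost its call without lactating goat 2 or dry goat 54 (highest adjusted p = 0.0930). SLC38A2, a neutral amino acid importer, had 23.2, 20.1 and 41.4 CPM in lactation and 6.05, 4.69 and 4.64 CPM in the dry state. Of 11 members tested, 3 were higher and 1 lower, with a median of 0.55, beside 15.1% called over all features. The 1 that fell was UGDH, a glucuronic acid enzyme. NFAT5 itself had 42.5, 25.6 and 36.6 CPM in lactation and 28.3, 15.005 and 18.4 CPM in the dry state and was not called (0.40, SE 0.27, edgeR adjusted p = 0.372). Thick limb signal was 4.11 times as high in lactation beside these values, and its part in them was not tested.

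Of 15 genes of vasopressin signalling and urea transport tested, 3 were higher and 1 lower, with a median of 0.31. Over all features 15.1% were called. SLC14A1, the urea transporter of descending vasa recta, had 6.50, 3.07 and 3.36 CPM in lactation and 0 in all dry goats, at least 23.1-fold higher. SLC14A2, the urea transporter of the inner collecting duct and thin limb, had 17.1, 12.5 and 19.8 CPM in lactation and 4.78, 5.74 and 5.45 CPM in the dry state (1.24, SE 0.33, edgeR adjusted p = 0.0256). Its call was lost without lactating goat 2 or 6 or dry goat 54 or 73 (highest adjusted p = 0.115). ADCY6, the adenylyl cyclase downstream of the vasopressin receptor, had 29.5, 28.0 and 34.3 CPM in lactation and 7.41, 7.50 and 8.39 CPM in the dry state (1.62, SE 0.26). PDE4D, which degrades cyclic AMP, fell by 1.74 and lost its call without dry goat 73 (adjusted p = 0.0679). The vasopressin receptor AVPR2 had 5.34, 3.48 and 3.15 CPM in lactation and 0.59, 0.56 and 1.78 CPM in the dry state without passing the test (edgeR adjusted p = 0.146), and the oxytocin receptor OXTR had 25.3, 17.2 and 21.4 CPM in lactation and 16.9, 9.38 and 11.8 CPM in the dry state (edgeR adjusted p = 0.426).

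In the list of aldosterone and sodium handling, 0 of 16 genes were higher and 4 were lower, with a median of -0.48. Over all features 9.11% were called lower. The epithelial sodium channel subunits SCNN1A, SCNN1B and SCNN1G, the mineralocorticoid receptor NR3C2 and the kinase SGK1 were not called. The sodium pump subunit ATP1B1 had 132, 127 and 135 CPM in lactation and 193, 169 and 171 CPM in the dry state (-0.79, SE 0.16, edgeR adjusted p = 0.00628). NPR3, the clearance receptor for natriuretic peptides, had 0.46, 0.41 and 0 CPM in lactation and 10.7, 8.07 and 6.78 CPM in the dry state. WNK1, a kinase that tunes salt transport, fell by 0.94 and lost its call without any 1 goat but dry goat 73 (highest adjusted p = 0.152).

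The called genes of calcium, magnesium, phosphate and vitamin D handling split by segment. Of 18 tested, 2 were higher, 7 were lower and 9 were not called, beside 15.1% called over all features. The 2 that rose, CASR and CLDN19, are members of the thick limb list, described above, while CLDN16 of that list was not called. Those that fell included CALB1, SLC8A1 and TRPM6 of the distal tubule and SLC34A3, a phosphate cotransporter of the proximal tubule, with 20.6, 12.7 and 2.10 CPM in lactation and 54.6, 88.9 and 108 CPM in the dry state (-3.22, SE 0.54, edgeR adjusted p = 0.00163). KL, the klotho co-receptor for the phosphate hormone FGF23, had 15.4, 16.4 and 16.04 CPM in lactation and 68.6, 45.3 and 70.0 CPM in the dry state (-2.29, SE 0.24). PTH1R, the parathyroid hormone receptor, fell by 2.63. S100G, another calcium carrier, fell by 1.42 and lost its call without any 1 goat but lactating goat 2 (highest adjusted p = 0.128). The vitamin D receptor VDR had 10.4, 4.39 and 7.02 CPM in lactation and 6.80, 5.97 and 3.69 CPM in the dry state, with a log2 fold change of 0.01. Proximal and distal tubule lists were 9.80 and 3.62 times as high in dry goats, and their part in these falls was not tested.

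Enzymes of glucose synthesis fell in lactation, while PDK4 and PPARA rose. Of 13 genes of gluconeogenesis and fat oxidation tested, 2 were higher and 6 lower, with a median of -1.31. Over all features 6.02% were called higher and 9.11% lower. G6PC, which releases free glucose, had 2.25, 2.08 and 3.25 CPM in lactation and 50.9, 28.4 and 63.7 CPM in the dry state (-4.59, SE 0.37, edgeR adjusted p = 1.21e-05). PCK1, the cytosolic enzyme that commits to glucose synthesis, had 1.39, 13.3 and 0 CPM in lactation and 101, 81.2 and 163 CPM in the dry state. FBP1, which acts upstream of G6PC, and PCK2, the mitochondrial form of PCK1, also fell (-4.77 and -1.95). PDK4, the kinase that spares glucose from oxidation, had 17.8, 19.9 and 29.6 CPM in lactation and 4.68, 6.17 and 4.57 CPM in the dry state (1.76, SE 0.34, edgeR adjusted p = 0.0038). PPARA, the receptor that turns on fat oxidation, had 84.0, 86.8 and 66.8 CPM in lactation and 37.2, 34.3 and 22.8 CPM in the dry state, and lost its call without lactating goat 3 or dry goat 73 (highest adjusted p = 0.0563). G6PC, FBP1 and PCK1 are also members of the proximal tubule list.

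Of the 13 genes encoded by mitochondrial DNA, 9 were lower in lactation and 0 higher, with a median of -1.21. Over all features 9.11% were called lower and 6.02% higher. ND5, a subunit of complex I, had 367, 443 and 426 CPM in lactation and 805, 1095 and 480 CPM in the dry state (-1.30, SE 0.27, edgeR adjusted p = 0.0061), and ND2 had 38.7, 130 and 98.8 CPM in lactation and 259, 231 and 217 CPM in the dry state. ND6 and ATP8 fell by 2.11 and 1.97. ND1, ND4, ND4L, COX3 and CYTB were called with all goats and lost the call without 1 to 4 of them, with a highest adjusted p of 0.17, for ND4L. Mitochondrial genes are transcribed as long joint transcripts, ND6 from the opposite strand to the rest, and several overlap or adjoin each other, so the 13 are not independent. Of 20 cytosolic ribosomal protein genes tested, none was called, with a median of 0.19.

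SPP1, the secreted phosphoprotein osteopontin made by thick limb and distal cells and raised in tubular injury, had 993, 275 and 1609 CPM in lactation and 61.4, 48.4 and 39.8 CPM in the dry state (3.89, SE 0.48, edgeR adjusted p = 0.000215). It was the highest of the lists' genes in goats 2 and 6. LCN2 was at 0 in all 6 libraries, and VIM had 23.0, 8.19 and 31.96 CPM in lactation and 7.998, 12.0 and 10.5 CPM in the dry state. Of 4 tubular injury genes tested, 1 was called, against 15.1% of all features. In the prostaglandin list, 2 of 8 were higher and 1 lower, beside 15.1% called over all features. PTGS2, the inducible cyclooxygenase, had 15.8, 11.1 and 12.0 CPM in lactation and 3.71, 2.44 and 3.39 CPM in the dry state, and lost its call without lactating goat 2 (adjusted p = 0.0508). PTGER3, described above, was the other that rose. HPGD fell and was at 0 in lactation and at 13.3, 3.0 and 6.42 CPM in the dry state.

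Of 14 hypoxia genes tested, 1 was higher, 2 were lower and 11 were not called, against 15.1% called over all features. HIF1A, the oxygen-regulated transcription factor, had 62.9, 19.0 and 43.1 CPM in lactation and 11.1, 4.69 and 9.28 CPM in the dry state (1.93, SE 0.40, edgeR adjusted p = 0.00617). EGLN3, a hydroxylase and target of that factor, fell by 3.71 and NDRG1, another target, by 1.29. Of 17 chaperone genes, 2 were higher and 1 lower, beside the same 15.1% called over all features. HSPD1, the mitochondrial chaperonin, had 13.9, 13.9 and 20.4 CPM in lactation and 59.7, 30.4 and 44.6 CPM in the dry state (-1.82, SE 0.28). The small heat shock protein CRYAB (1.31) and the heat shock factor HSF1 (0.94) rose, and both lost the call without any of 5 goats (highest adjusted p = 0.17 for CRYAB and 0.119 for HSF1, with the call left only without lactating goat 3 for CRYAB and without dry goat 73 for HSF1). In the interferon list IFI6 was the 1 of 9 genes tested that rose, while 6.02% of all features were called higher. IFI6 had 9.51, 10.03 and 14.1 CPM in lactation and 0.20, 2.25 and 1.25 CPM in the dry state.

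Receptors of the lactation hormones were not called. PRLR, the prolactin receptor, had 26.9, 21.0 and 24.4 CPM in lactation and 37.7, 27.0 and 25.1 CPM in the dry state (-0.67, SE 0.23, edgeR adjusted p = 0.0744). The growth hormone receptor GHR had 0.46, 1.02 and 3.36 CPM in lactation and 9.56, 3.38 and 3.03 CPM in the dry state (edgeR adjusted p = 0.095), and SOCS2, a target of STAT5, differed by -0.60. IGFBP5, a binding protein of insulin-like growth factors, was the 1 of 8 genes tested that rose, while 6.02% of all features were called higher. IGFBP5 had 177, 76.6 and 119 CPM in lactation and 65.0, 44.6 and 44.4 CPM in the dry state. It lost its call without any of 4 goats (highest adjusted p = 0.147, for lactating goats 2 and 6 and dry goats 64 and 73). Of 11 glucocorticoid-responsive genes, ZBTB16 rose by 1.56 and KLF9 fell by 1.21, beside 15.1% of all features called. ZBTB16 lost its call without any 1 of the 6 goats (highest adjusted p = 0.135), and KLF9 without lactating goat 2 or dry goat 54 or 73 (highest adjusted p = 0.0832). Of 15 clock genes tested, none was called, and CLOCK and NR1D1 had log2 fold changes of 0.54 and 0.20.

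Whether a difference was larger in kidney medulla than in the same goats elsewhere was tested with limma, as the state difference in kidney medulla minus that in each goat's mean over the other 32 tissues. Of 21830 features, 2768 (12.7%) differed at an adjusted p of at most 0.05, 1123 (5.14%) with a higher and 1645 (7.54%) with a lower lactation effect in kidney. That fit took the 2 values of a goat as independent. With the goat as a block, which keeps their pairing, 1702 differed, 617 higher and 1085 lower. Of the 2787 features called in kidney medulla itself, 2203 also differed from the other tissues in the same direction in the fit without the block. Both tests use the same kidney values, so this overlap is no separate support. The median size of the state difference over all 21830 features was 0.53 on the log2 scale in kidney medulla and 0.15 over the other tissues. A kidney value rests on 1 library per goat and the other on a mean over 32. For the 2787 features called in kidney medulla, which were chosen by that difference, the medians were 1.82 and 0.16. SLC12A1 (3.83, limma adjusted p = 0.00032, and 0.0076 with the block), SLC5A3 (4.07), CALB1 (-4.30), GATM (-5.997), SPP1 (3.52) and KL (-2.43) were among those that differed, with and without the block. PDK4, PPARA and ZBTB16 did not pass this test, with differences of 0.53, 0.14 and 0.02 (limma adjusted p = 0.30, 0.80 and 0.99). AKR1B1 (2.81) and SLC14A2 (1.21) passed it without the block and not with it (limma adjusted p = 0.068 and 0.056 with the block).

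**Figure D5:**
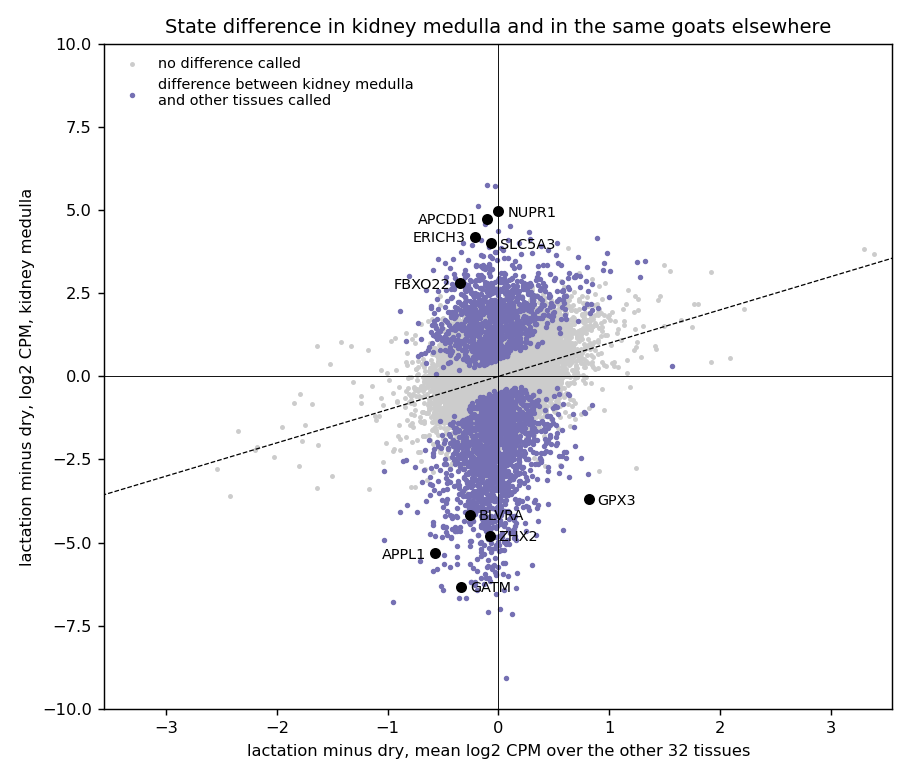
State difference, lactation minus dry, as log2 CPM in kidney medulla (vertical) and as each goat's mean over the other 32 tissues (horizontal), for 21830 features, with those whose difference between the 2 was called in purple and 10 named genes in black. The dashed line marks equal differences, and features spread more along the vertical axis than along the horizontal one (median size over all features 0.53 against 0.15).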

How the data were processed

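Total RNA of the tissues was extracted with a RiboPure kit and sequenced from strand-specific libraries, per the labels' protocols. The authors deposited a table with an estimated count per feature, not normalized, a matrix of natural log offsets and a table of feature positions, whose deposited values of type other were used only for overlaps between features. STAR, StringTie and edgeR are named in the submitters' processing notes, while their versions, the genome build and strand use in counting are not given in the sources used here. Of 39734 features, 14511 are annotated as lncRNA and 23502 others matched a RefSeq name (ARS1.2, names only), while 37.0% of values above 0 were fractional.

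Counts were rounded to whole numbers. Features passing filterByExpr (minimum count 10) were tested with edgeR 4.0.16 (quasi-likelihood, TMM, R 4.3.3), lactation against dry, with Benjamini-Hochberg adjustment at 0.05. The comparison with other tissues used limma 3.58.1 on log2 CPM (prior count 2, mean of at least 1 CPM in kidney medulla). DESeq2 1.42.0 was an alternative. The steps were checked on simulated counts. The same goats gave all tissues, so kidney and the other tissues are paired: deviations of a goat's kidney and other-tissue profiles correlated at 0.214, 0.169 and 0.216 in lactating goats 2, 3 and 6 and at 0.101, 0.0697 and 0.0696 in dry goats 54, 64 and 73, and 5 of 6 kidneys correlated best with their own goat (dry goat 64 with goat 2). Intervals and floors (95%, 3 counts) cover counting error only.

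Members and lists were chosen with earlier results of these data known. By the naming rule the text names up to 4 members of each list, 10 genes and 3 lncRNAs per direction with the largest change, and 5 per direction that differ from other tissues. Other list members named in the text were chosen after their values were seen. Of 398 list genes, 362 were in the table. Some genes that the rule names are not reported here.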

Additional observations from a re-analysis of the deposited data

Results flagged for a closer look

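The 10 features here, 5 per direction, are the named genes with the lowest p in limma's test of the difference itself. In each, the lactation effect in kidney medulla differed from that over the other 32 tissues of the same goats. All 10 were also called with the goat as a block, a fit that reuses the same values. Values are the state difference in kidney medulla minus that in the other tissues, on the log2 scale. On the higher side, FBXO22, a ubiquitin ligase subunit, differed by 3.15, with 59.2, 62.2 and 51.8 CPM in lactation and 6.21, 5.86 and 6.25 CPM in the dry state. APCDD1 differed by 4.84 and SLC5A3 by 4.07. NUPR1, a stress-induced nuclear protein, differed by 4.97, with 25.98, 24.8 and 22.7 CPM in lactation and 0.20, 0 and 0.71 CPM in the dry state. ERICH3 differed by 4.41, with 12.5, 21.7 and 17.7 CPM in lactation and 0.59, 0.38 and 0.18 CPM in the dry state.

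On the lower side, GATM differed by -5.997. GPX3, a secreted glutathione peroxidase, differed by -4.52, with 13.0, 11.7 and 13.2 CPM in lactation and 160, 123 and 116 CPM in the dry state. APPL1, an adaptor of endosomes, differed by -4.76, with 9.98, 9.42 and 9.67 CPM in lactation and 502, 282 and 223 CPM in the dry state. BLVRA, the biliverdin reductase, differed by -3.90, with 6.21, 4.58 and 6.92 CPM in lactation and 113, 66.0 and 87.5 CPM in the dry state. ZHX2, a transcriptional repressor, differed by -4.72, with 8.12, 15.1 and 7.15 CPM in lactation and 217, 221 and 214 CPM in the dry state. The states did not overlap for any of the 10, which were chosen by a difference that holds these kidney values. FBXO22, APPL1, SLC5A3, ZHX2 and ERICH3 overlap another annotated feature. The proximal tubule list was 9.80 times as high in dry goats beside these values, and its part in them was not tested.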

How the results depend on the processing

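No paired analysis was possible for lactation against dry because the states share no goat. Against 2787 calls (1109 higher, 1678 lower), DESeq2 gave 3090, no filter 3663, RLE factors 2786, library totals 3764 (2572 higher, 1192 lower), the deposited offsets 2745, no lncRNA 1702 (682 higher, 1020 lower) and the proximal tubule covariate 1 (0 higher, 1 lower). Leaving out 1 goat gave 1941 to 2737 (682 to 1137 higher, 1259 to 1600 lower). For the difference from other tissues, against 2768 (1123 higher, 1645 lower), the goat as replicate block gave 1702 (617 higher, 1085 lower), no lncRNA 1612 (647 higher, 965 lower), library totals, added after seeing the data, 3195 (1969 higher, 1226 lower), and leaving out 1 goat 1887 to 2546 (675 to 1116 higher, 1137 to 1430 lower). Of 83 called named genes, 83 kept the call with DESeq2, no filter or RLE, 80 with library totals, 82 with the offsets, 74 of 76 without lncRNA, 74 to 79 without 1 goat and 0 with the covariate. With the covariate the log2 fold change turned to -1.02 for PLA2R1, 0.59 for LRP2, 2.05 for CUBN, 0.20 for FXYD2, -0.44 for AKR1B1, -0.27 for IGFBP5, 0.12 for KLF9, -1.46 for CRYAB and 0.17 for ND2. That covariate is nearly the state itself.

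On TMM-scaled CPM the log2 ratio of list sums was -0.0076 for thin limb, -2.23 for distal tubule, 0.27 for principal cells, 0.10 for intercalated cells, 0.51 for urothelium, 0.56 for endothelium, 0.29 for immune cells, 0.054 for adipocytes and -0.15 for red cells. Without the highest member it was -1.77 for podocytes, 1.32 for thin limb, 1.49 for thick limb, -1.0 for distal tubule, 1.09 for principal cells, -0.020 for intercalated cells, 1.32 for urothelium, -0.15 for adipocytes and 1.33 for the adrenal list, and over features other than lncRNA it was 0.53 for immune cells. The cause of these shifts was not tested. Depth limits genes near the floor of 0.535 to 0.696 CPM.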
